A study of Mus musculus with 6 samples.

Results

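Malat1, Neat1 and a group of transcripts that host small nucleolar RNAs (snoRNAs) were examined in RAW264.7 cells, a macrophage-like mouse line, after treatment with SKI-II. The 10 genes, Malat1, Neat1, Gas5, Snhg1, Snhg3, Snhg5, Snhg6, Snhg8, Snhg12 and Snhg15, were taken by their symbols from a count table of 49315 genes, and all 10 were among the 12274 that had enough counts to be tested. SKI-II is a synthetic compound that inhibits sphingosine kinases, the enzymes that make sphingosine-1-phosphate. Wild-type RAW264.7 cells received SKI-II at 4 μg/mL, or DMSO, the vehicle, and RNA was taken after 24 h, with 3 libraries per group and no library at an earlier time. The libraries were made from RNA enriched with oligo(dT), which retains RNA with a poly(A) tail or a long internal run of A. The labels do not say whether the 3 libraries of a group came from separate cultures, so the p-values measure the spread between these libraries, which may be technical. In such bulk libraries, fewer cells of a type and less RNA per cell cannot be told apart.

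All of these RNAs are noncoding. Malat1 is a very abundant nuclear RNA that gathers in nuclear speckles, where splicing factors are stored, and Neat1 is the scaffold around which paraspeckles, another kind of nuclear body, assemble. Gas5 and the Snhg genes are transcribed and spliced mainly to release snoRNAs from their introns, which then guide the chemical modification of ribosomal RNA, while the spliced exons are often removed by nonsense-mediated decay because they hold no long reading frame. Many of these host genes begin with a run of pyrimidines, the 5′ terminal oligopyrimidine start that they share with ribosomal protein genes.

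The 3′ ends of Malat1 and Neat1 bear on what a poly(A)-enriched library can hold, so they are shown here from the GENCODE M21 transcripts, with T for U. The Malat1 transcript of 6983 bases lies on the minus strand of chromosome 19 (GRCm38) and is annotated as 1 unspliced block. The stretch printed for it is chr19:5795928-5796059, and its capitals mark an encoded run of 12 A. RNase P cuts just downstream of this run to release a small tRNA-like RNA, and the annotated transcript goes on for another 298 bases. Neat1, also on the minus strand of chromosome 19, has a short form of 3004 bases, which ends at chr19:5842473-5842552 after a polyadenylation signal (in capitals), and a long form of 20771 bases, which ends at chr19:5824708-5824787 in encoded runs of A (in capitals) and is also cut by RNase P. The counts are per gene and do not separate these forms.
Malat1 A tract: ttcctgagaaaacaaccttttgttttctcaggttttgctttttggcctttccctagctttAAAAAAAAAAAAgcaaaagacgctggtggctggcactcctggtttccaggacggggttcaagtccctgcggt
Neat1 short form, 3′ end: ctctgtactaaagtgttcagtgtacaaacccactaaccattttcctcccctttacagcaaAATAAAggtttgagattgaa
Neat1 long form, 3′ end: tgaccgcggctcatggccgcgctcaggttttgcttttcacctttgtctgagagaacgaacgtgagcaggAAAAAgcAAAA

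The starts of the host genes are shown next, because the pyrimidine start is the feature that this family is known for. Each line gives the 20 bases before and the 20 bases from the RefSeq start (GRCm38.p6), on the strand of the gene, with the longest run of C and T within 10 bases of the start in capitals. RefSeq windows were found for 8 of the 10 genes, with 9 starts, since Gas5 has a pair of them.
Gas5, upstream start, chr1:161034581-161034620, plus strand: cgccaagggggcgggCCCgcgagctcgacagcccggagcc
Gas5, downstream start, chr1:161035146-161035185, plus strand: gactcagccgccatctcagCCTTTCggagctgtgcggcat
Snhg12, chr4:132308658-132308697, plus strand: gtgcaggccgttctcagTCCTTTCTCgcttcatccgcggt
Snhg8, chr3:123508317-123508356, minus strand: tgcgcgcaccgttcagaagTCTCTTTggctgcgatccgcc
Snhg1, chr19:8723467-8723506, plus strand: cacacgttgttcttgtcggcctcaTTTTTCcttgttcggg
Snhg3, chr4:132353667-132353706, minus strand: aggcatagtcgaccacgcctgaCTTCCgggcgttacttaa
Snhg15, chr11:6528741-6528780, minus strand: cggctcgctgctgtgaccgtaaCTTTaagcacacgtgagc
Snhg5, chr9:88522878-88522917, minus strand: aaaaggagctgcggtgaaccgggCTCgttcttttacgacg

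Within this limit of 10 bases, the run was 9 bases long at Snhg12, 7 at Snhg8, and 6 at Snhg1 and at the downstream start of Gas5. It was 5 bases at Snhg3, 4 at Snhg15 and 3 at Snhg5 and at the upstream start of Gas5. Of the 32851 RefSeq windows of this kind, 4.51% held a run of at least 9 bases, 12.2% of at least 7 and 20.2% of at least 6. The limit cuts off some runs. Followed past it, the run of Snhg1 was 9 bases, as long as that of Snhg12, and Snhg5 had a run of 7 that begins inside the limit, as long as that of Snhg8, while the other starts kept their lengths. Measured in that way, 9.55% of windows held a run of at least 9 bases and 19.7% of at least 7. At Malat1, whose RefSeq start is base 5802672 of chromosome 19, the run was 4 bases, a length that 54.4% of windows reach.

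Of the 10 RNAs, 4 were upregulated in SKI-II-treated cells compared to the DMSO control, 0 were downregulated and 6 did not pass the test. The 4 were Neat1, Gas5, Malat1 and Snhg12, each with a log2 fold change above 1. Over all 12274 genes tested, 18.4% passed the adjusted p threshold of 0.05 as higher and 19.7% as lower. With a log2 fold change past 1 or -1 also required, these shares were 8.28% and 7.44%. The median log2 fold change was 0.25 over the 10 RNAs, 0.23 over the 8 host transcripts and 0.00 over all tested genes. Genes were tested by edgeR's quasi-likelihood F test with Benjamini-Hochberg adjustment over all tested genes. At an unadjusted p below 0.05 edgeR called 4 of the 10 higher and 0 lower, and at an adjusted p below 0.05 DESeq2 called 3 higher and 0 lower, and limma-voom 4 higher and 0 lower.

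**Figure D1:**
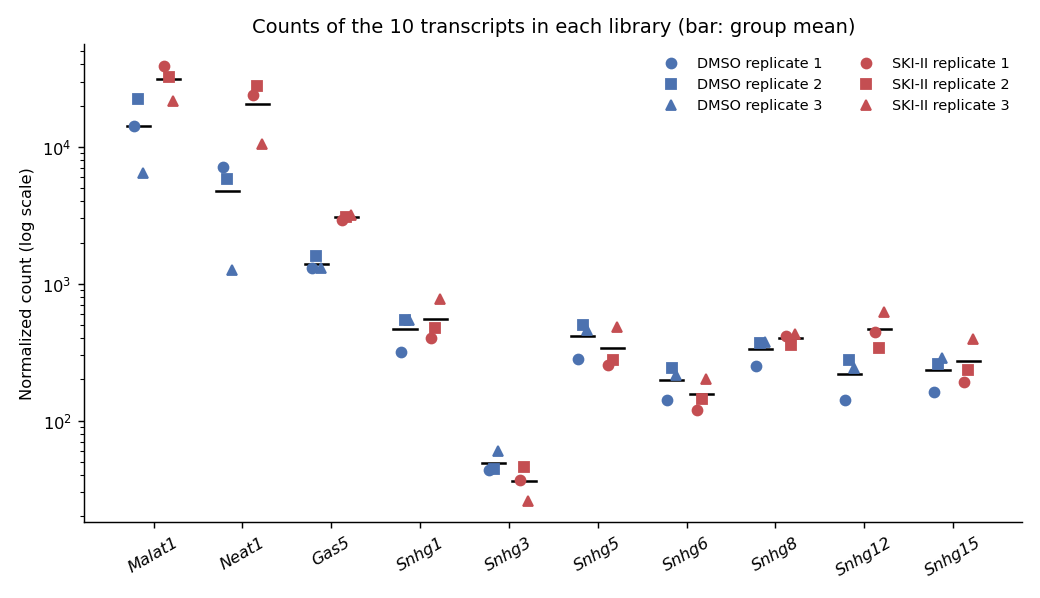
Normalized count (log scale) of each of the 10 transcripts in each of the 6 libraries, with DMSO in blue, SKI-II in red, a marker shape for each replicate number and a bar at the mean of each group. The SKI-II points of Neat1, Gas5 and Snhg12 all sit above the DMSO points, Malat1 overlaps by 1 library of each group, and the other 6 overlap.

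Neat1 showed the largest change. Its normalized counts, which are counts scaled to a common library size, were 7124, 5791 and 1261 in DMSO replicates 1, 2 and 3 and 23790, 27670 and 10420 in the SKI-II replicates. All 3 SKI-II libraries lay above all 3 DMSO libraries, as they did for 24.8% of all tested genes, while 25.5% of genes had all SKI-II libraries below. The means were 4725 ± 3073 (SD, n = 3) and 20628 ± 9048 (SD, n = 3), and the log2 fold change was 2.13 with a standard error of 0.55 and an adjusted p of 0.0128 (edgeR). Without SKI-II replicate 1 the call was lost, with a log2 fold change of 2.00 and an adjusted p of 0.0518.

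Malat1 was the most abundant of the 10, at rank 40 of all tested genes by mean normalized count, with Neat1 at rank 123. Malat1 stood at 14260, 22220 and 6404 normalized counts in vehicle-treated cells and at 39150, 32630 and 21600 after SKI-II. The groups overlapped, because SKI-II replicate 3 was just below DMSO replicate 2. The log2 fold change was 1.12 with a standard error of 0.38 and an adjusted p of 0.0425 (edgeR). Of the 4 calls this one was lost most often. It was lost with DESeq2 (adjusted p = 0.0703), with library size alone (0.0584) and when DMSO replicate 1 (0.0738), or replicate 1 (0.16) or 2 (0.10) of SKI-II, was left out, and the log2 fold change ranged from 0.77 to 1.58 over the alternatives.

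Both nuclear RNAs varied widely within the groups, and their lowest libraries were the same. Replicate 3 was the lowest of its group for both, in DMSO and in SKI-II. The highest libraries differed, being DMSO replicate 2 and SKI-II replicate 1 for Malat1, and DMSO replicate 1 and SKI-II replicate 2 for Neat1. The highest DMSO library of each RNA held 3.47 times as much Malat1 or 5.65 times as much Neat1 as the lowest, against 1.24 times for Gas5. With replicate 3 left out of both groups, an alternative chosen after the data were seen, the log2 fold change was 0.98 for Malat1 (adjusted p = 0.00689, edgeR) and 1.99 for Neat1 (adjusted p = 2.73e-05).

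The balance between Malat1 and Neat1 was tested next. Malat1 held 2.00, 3.84 and 5.08 times the counts of Neat1 in the DMSO replicates, and 1.65, 1.18 and 2.07 times in the SKI-II replicates. The groups overlap, since SKI-II replicate 3 was above DMSO replicate 1. The mean log2 ratio was 1.76 ± 0.69 (SD, n = 3) in DMSO and 0.67 ± 0.41 (SD, n = 3) in SKI-II, a difference of -1.09. This was not significant in an exact permutation test (two-sided p = 0.2), and with 3 libraries against 3 the smallest p possible is 0.1.

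Among the host transcripts, Gas5 had the smallest spread and the smallest p. The DMSO libraries held 1298, 1606 and 1299 normalized counts of it, and the SKI-II libraries 2928, 3089 and 3193. The groups were far apart compared with their spread, with means of 1401 ± 178 (SD, n = 3) and 3070 ± 133 (SD, n = 3). The log2 fold change of 1.13 had a standard error of 0.13 and an adjusted p of 0.000125 (edgeR), and it stayed between 1.05 and 1.23 in all 15 alternatives, with the call kept in each.

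Snhg12, which carries snoRNAs of both the box C/D and the box H/ACA class, stood at 141.8, 275.4 and 242.6 normalized counts with the vehicle and at 440.9, 336.8 and 625.7 in SKI-II. No SKI-II library fell into the DMSO range. The log2 fold change was 1.09 with a standard error of 0.28 and an adjusted p of 0.0123 (edgeR). Leaving out DMSO replicate 1 gave 0.84 and leaving out SKI-II replicate 3 gave 0.82, and the call was kept in the 15 alternatives. With glmTreat, which asks for a change beyond 0.5 on the log2 scale and is not among the 15, it was lost (adjusted p = 0.0626).

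The other 6 host transcripts did not pass the test, and for each the groups overlapped. Snhg8, a host of the box H/ACA RNA Snora24, had 251.6, 370.2 and 377.3 normalized counts with the vehicle and 412.9, 357.8 and 431.8 in SKI-II, with a log2 fold change of 0.27 and a 95% interval of -0.14 to 0.68. Snhg1, which holds a series of box C/D snoRNAs, had 317.6, 545.8 and 543.6 in DMSO and 401.7, 471.4 and 776.4 in SKI-II, with a log2 fold change of 0.23 and an interval of -0.38 to 0.84. These intervals leave out a log2 change of 1 in either direction. Snhg15 (0.22, interval -0.44 to 0.88), Snhg5 (-0.29, -0.91 to 0.34) and Snhg6 (-0.35, -0.94 to 0.24) gave log2 fold changes on both sides of 0, and their intervals also stayed within 1 and -1. Snhg3, the least abundant, gave -0.45 with an interval of -1.17 to 0.26, so that a fall to below a log2 change of -1 was within it. The adjusted p-values of these 6 (edgeR) lay between 0.283 for Snhg8 and 0.594 for Snhg15. None of them was called in any of the 15 alternatives.

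**Figure D2:**
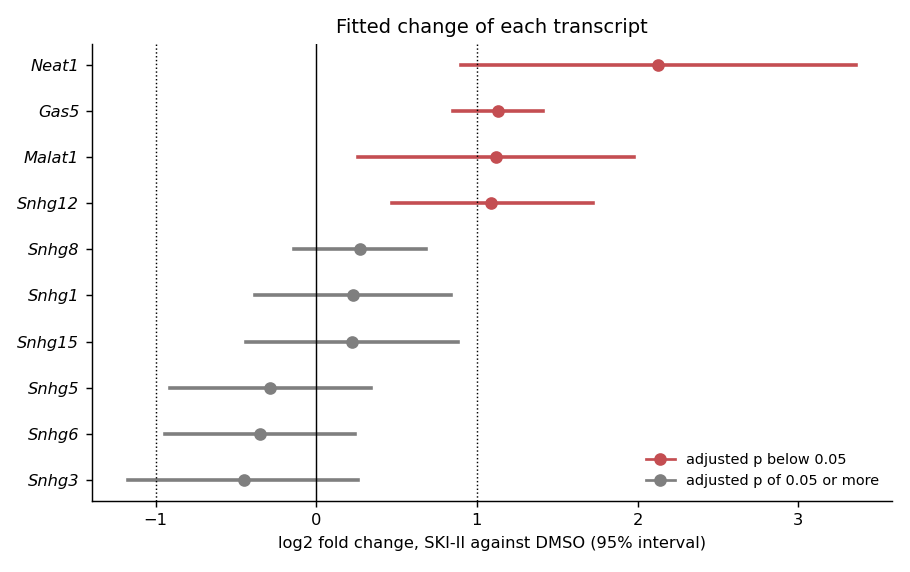
Fitted log2 fold change of SKI-II against DMSO for each of the 10 transcripts (point) with its 95% interval (line), in red where the adjusted p was below 0.05 and in grey otherwise, and dotted lines at 1 and -1. Neat1 has the largest estimate and the widest interval, 0.90 to 3.36, and Gas5 the narrowest of the 4 in red, 0.85 to 1.41.

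The host transcripts also shared a pattern within the groups that differed from that of Malat1 and Neat1. DMSO replicate 1 was the lowest DMSO library for all 8 of them, though for Gas5 (against replicate 3) and Snhg3 (against replicate 2) by less than 2 normalized counts, and SKI-II replicate 3 was the highest SKI-II library for 7 of the 8. The exception was Snhg3, with 36.92, 45.80 and 26.07 normalized counts in the SKI-II replicates.

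As a share of each library, the 10 RNAs took 0.156%, 0.202% and 0.0654% of the counts in DMSO replicates 1, 2 and 3 and 0.426%, 0.408% and 0.234% in SKI-II. All SKI-II shares were above all DMSO shares, with means of 0.141% ± 0.0695 (SD, n = 3) and 0.356% ± 0.106 (SD, n = 3). Malat1 and Neat1 made up most of this, at 0.0449% to 0.177% in DMSO and 0.196% to 0.396% in SKI-II. The 8 host transcripts took 0.0172%, 0.0243% and 0.0204% in DMSO and 0.0301%, 0.0310% and 0.0375% in SKI-II. Within the host counts, Gas5 accounted for 49.2%, 41.8% and 37.3% in DMSO and 61.2%, 62.3% and 52.1% in SKI-II.

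**Figure D3:**
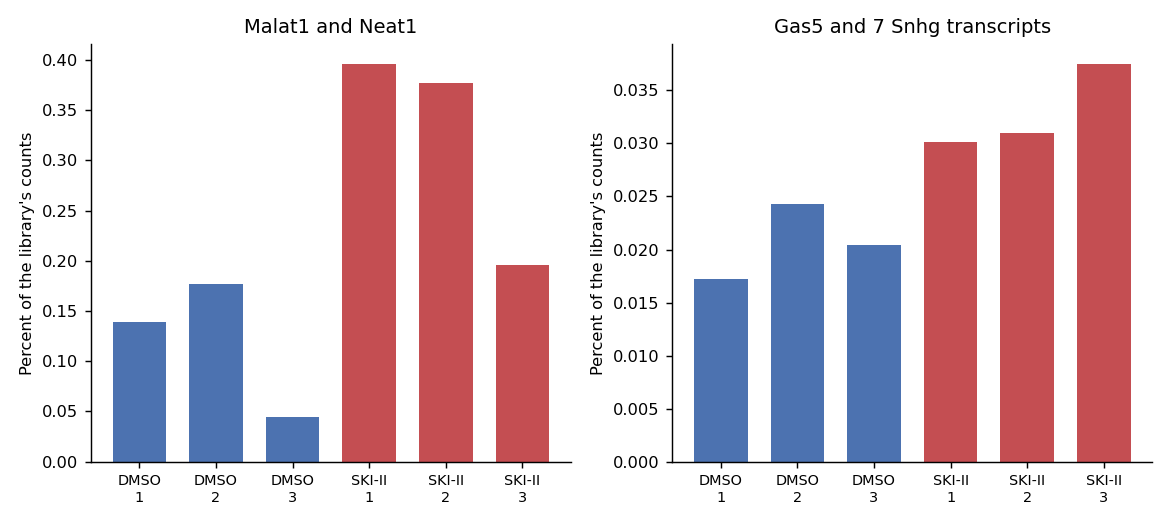
Percent of the counts of each library on Malat1 and Neat1 together (left) and on Gas5 and the 7 Snhg transcripts together (right), 1 bar per library, DMSO in blue and SKI-II in red, each panel with its own axis from 0. The left panel spans 0.0449% to 0.396% and is lowest in replicate 3 of each group, while the right panel spans 0.0172% to 0.0375% and is highest in SKI-II replicate 3.

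Levels of different genes were compared per kilobase of merged exon length, as normalized counts per kilobase. The merged length takes in bases that only some transcripts keep, and 20 of 25 Gas5 transcripts are annotated as retaining an intron. It covered 3760 of the 4118 bases of Gas5 and the whole span of Snhg1, Snhg8 and Snhg12, but 986 of 5673 bases of Snhg3. The order of the genes therefore also depends on the annotation. In DMSO, Malat1 led with 2047 ± 1133 (SD, n = 3), followed by Snhg8 at 390.4 ± 82.8, Gas5 at 372.6 ± 47.2, Snhg5 at 239 ± 66.2 and Neat1 at 227.5 ± 147.9. Snhg6 (173.9), Snhg15 (173.7), Snhg1 (158) and Snhg12 (91.6) came next, and Snhg3 was last with 50.2. Snhg8 and Gas5 differed by less than their spread, as did Snhg5 and Neat1, and Snhg6, Snhg15 and Snhg1. In SKI-II the order was Malat1 at 4457 ± 1271, Neat1 at 993.1 ± 435.6, Gas5 at 816.5 ± 35.5 and Snhg8 at 469.9 ± 45.1 (SD, n = 3 each). Neat1 and Gas5 did not differ beyond the spread of Neat1 there. Snhg15 (201.2), Snhg5 (195), Snhg12 (194.8), Snhg1 (185.2) and Snhg6 (135.5) were close together, with Snhg3 again last at 36.8. For Neat1 the level per kilobase is taken over the long form, so it would be higher if most reads came from the short form.

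The snoRNAs themselves were hardly counted. Of 30 snoRNA genes annotated inside the 8 hosts and listed in the table, 27 were at 0 in all 6 libraries, and all 30 together had 25 counts against 26271 on the hosts. A count of 0 in a library allows up to 3 counts, and this covers counting error only. Counts were found for Snora16a in Snhg12, with 3, 5 and 1 in DMSO and 1, 1 and 4 in SKI-II, for Snord87 in Snhg6, with 1, 0 and 1 and then 1, 4 and 0, and for Snora73a in Snhg3, with 3 in SKI-II replicate 2 and 0 elsewhere. These numbers do not measure the snoRNAs, which have no poly(A) tail. The annotation also places many of them inside host exons of intron-retaining transcripts, where a read lies on both genes at once, and how such reads were assigned is not given in the sources used here. A pair of them is shown to make clear what the hosts release, with the C box (TGATGA) and the last D box (CTGA) in capitals, the short motifs that the box C/D proteins bind.
Snord47, in Gas5, chr1:161038082-161038158, plus strand: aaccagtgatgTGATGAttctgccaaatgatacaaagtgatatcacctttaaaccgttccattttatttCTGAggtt
Snord50a, in Snhg5, chr9:88521529-88521600, minus strand: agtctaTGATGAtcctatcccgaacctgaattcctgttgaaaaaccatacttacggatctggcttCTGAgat

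The mRNAs of proteins that work with these RNAs were examined as lists, to be read against the 19.7% of all tested genes that were called lower. Of 19 mRNAs of paraspeckle proteins, 9 were called lower and 0 higher (edgeR), with a median log2 fold change of -0.50 against 0.00 for all genes. At an unadjusted p below 0.05, 12 were lower and 0 higher. Hnrnpa1, an RNA-binding protein of splicing that is also found in paraspeckles, fell from 13202 ± 633 to 3527 ± 408 normalized counts (SD, n = 3 each), a log2 fold change of -1.90 (adjusted p = 1.5e-05, edgeR), and Tardbp, which encodes TDP-43, fell from 3338 ± 275 to 1561 ± 273, a log2 fold change of -1.10 (adjusted p = 0.000373). Both were lower in all 3 SKI-II libraries than in any DMSO library. Among 23 mRNAs of nuclear speckle and SR proteins, 5 were called lower and 0 higher, a share near that of all tested genes, with a median of -0.26. Rnps1, a component of the exon junction complex, was at -0.75 (adjusted p = 0.0041, edgeR), and Srrm1, a splicing coactivator, at -0.69 (adjusted p = 0.00144). Without DMSO replicate 3 the count lower in this list was 9.

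The mRNAs of enzymes that cut tRNA-like ends, as in Malat1 and long Neat1, gave 3 lower and 0 higher of 12 tested, not far from the share over all tested genes, with a median log2 fold change of -0.20. Elac1, an RNase Z, was at -0.73 (adjusted p = 0.0138, edgeR), Rpp40, an RNase P subunit, at -0.72 (0.0314), and Pop1, also of RNase P, at -0.60 (0.0495). The count of lower genes was 0 without DMSO replicate 2 or SKI-II replicate 1 and 1 without SKI-II replicate 2, and DESeq2 called 2 genes of this list higher.

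For the host transcripts, the matching groups were the proteins that bind snoRNAs and those that turn over the spliced exons. Of 20 snoRNP core and assembly genes, 7 were called lower and 0 higher (edgeR), with a median log2 fold change of -0.31, and at an unadjusted p below 0.05, 8 were lower and 0 higher. Nolc1, a nucleolar and Cajal body chaperone of snoRNPs, fell from 4534 ± 406 to 2215 ± 418 normalized counts (SD, n = 3 each), a log2 fold change of -1.03 (adjusted p = 0.000788, edgeR). Fbl, fibrillarin, the methyltransferase of box C/D snoRNPs, fell from 4523 ± 126 to 2319 ± 513, a log2 fold change of -0.96 (adjusted p = 0.00148). Of 18 genes of nonsense-mediated decay and the exon junction, 6 were called lower and 0 higher, with a median of -0.13. Among these were Upf3b (-0.82, adjusted p = 0.00369, edgeR) and the helicase gene Upf1 (-0.81, adjusted p = 0.000953). At an unadjusted p below 0.05, 6 of this list were lower and 1 higher.

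Of 20 genes of the nuclear RNA exosome and its adaptors, 8 were called lower and 0 higher, with a median of -0.17. Tent4a, a noncanonical poly(A) polymerase, was at -0.96 (adjusted p = 0.0003, edgeR) and the exosome subunit Exosc8 at -0.91 (0.00812). DESeq2 called 1 gene of the exosome list higher, and without DMSO replicate 2 the count lower was 5.

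**Figure D4:**
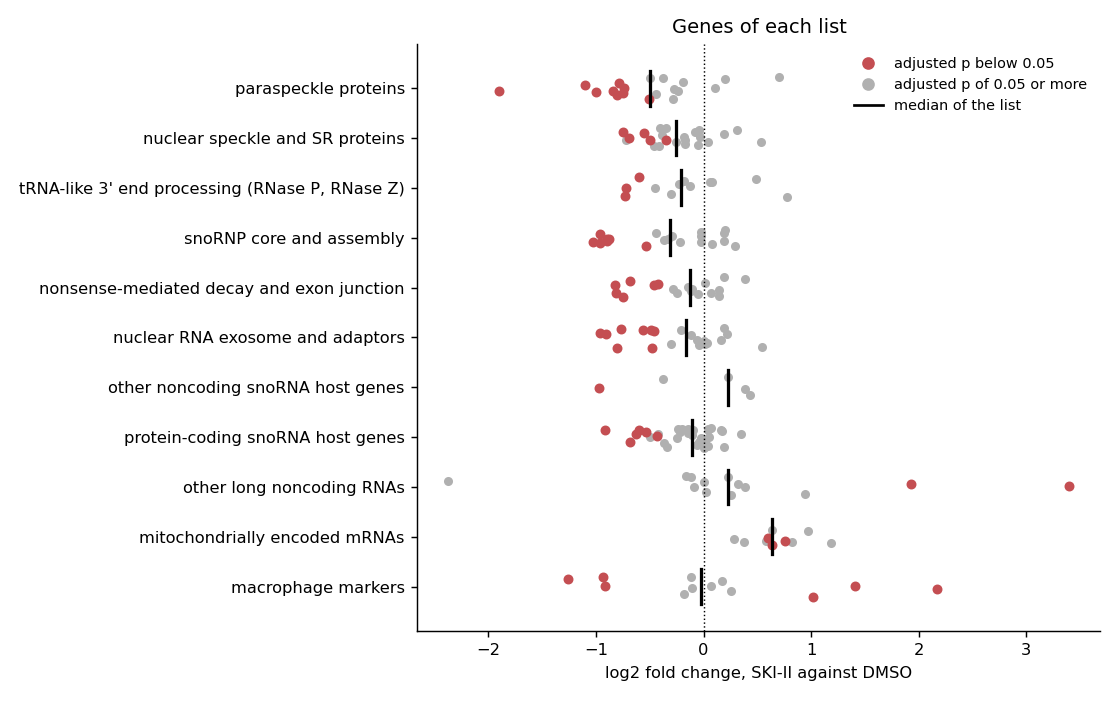
Log2 fold change of SKI-II against DMSO for each tested gene (points, spread vertically only for legibility) of 11 lists, red where the adjusted p was below 0.05, grey otherwise, with a black line at the median of each list. The medians of the paraspeckle (-0.50), snoRNP (-0.31) and nuclear speckle (-0.26) lists lie left of 0, and the mitochondrially encoded mRNAs (0.64) lie right of 0.

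Other noncoding snoRNA hosts were measured for comparison. Of 10 with a row in the table, 5 could be tested. Snhg20 was lower, with 259.5 ± 88.4 normalized counts under DMSO against 131.8 ± 37.2 under SKI-II (SD, n = 3 each), a log2 fold change of -0.97 and an adjusted p of 0.0238 (edgeR), although the groups overlapped. That call was lost when DMSO replicate 2, or replicate 1 or 3 of SKI-II, was left out. Zfas1 (0.39, adjusted p = 0.138, edgeR), Snhg18 (0.43, 0.463), Snhg17 (0.23, 0.46) and Epb41l4aos (-0.38, 0.312) did not pass the test. In the 34 protein-coding hosts, mainly genes of ribosomal proteins and translation factors, 6 were lower and 0 higher, a share near the 19.7% of all tested genes, with a median of -0.10, and 8 lower and 0 higher at an unadjusted p below 0.05. Taf1d, a subunit of an RNA polymerase I factor, was at -0.92 (adjusted p = 0.00277, edgeR) and Rps2, a ribosomal protein gene, at -0.68 (0.0232). The count lower was 2 without DMSO replicate 2 or SKI-II replicate 1, and 3 without DMSO replicate 3 or SKI-II replicate 2.

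Of 13 other long noncoding RNAs tested, 2 were called higher and 0 lower, a share near the 18.4% of all tested genes called higher. Both had a log2 fold change above 1. Mir22hg, the host of miR-22, rose from 41.8 ± 22.9 to 447.5 ± 265.9 normalized counts (SD, n = 3 each), or by 3.40 on the log2 scale (adjusted p = 0.00106, edgeR). Gm26917 went from 12601 ± 3128 to 48056 ± 13290, or by 1.93 on the log2 scale (adjusted p = 0.000355). Tug1 (0.39, adjusted p = 0.119, edgeR) and Pvt1 (0.26, 0.509) did not pass.

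The nearest protein-coding genes on each side of the 10 members were also compared. Frmd8, which lies 4224 bases from Neat1, was at -0.13 (adjusted p = 0.625, edgeR). Slc3a2, the heavy chain of a cell-surface amino acid transporter, starts 106 bases from Snhg1 on the opposite strand and was at 1.43 (adjusted p = 0.0116, edgeR), against 0.23 for Snhg1. Trnau1ap, 739 bases from Snhg12, was at 0.27 (0.217). Syncrip, beside Snhg5, was at -0.63 (adjusted p = 0.00736, edgeR) and Myo1g, beside Snhg15, at 0.44 (0.0246). Of the others, Wdr74 was at 0.68 (adjusted p = 0.0547, edgeR), Zbtb37 at 0.52 (0.325), Rcc1 at -0.38 (0.0666), Zfp949 at -0.32 (0.302), Phactr4 at -0.16 (0.364) and Ccm2 at 0.04 (0.83), and these 6 did not pass the test.

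Motifs were counted in the RefSeq windows from 250 bases before to 50 bases after each start, on both strands. The cyclic AMP response element TGACGTCA was found in windows of Gas5 and Snhg15, against 1.79% of all 32851 windows. The E-box CACGTG was found in that of Snhg15 (7.15% of all windows), and the NF-Y motif CCAAT in those of Snhg3, Snhg5 and Snhg8 (37.4%). TATAAA was in 4 windows, of Snhg1, Snhg3, Snhg5 and Snhg8 (13.6%), and the GC box GGGCGG in 6 windows of 5 genes (35.7%). The antioxidant response core TGACNNNGC was in that of Snhg8 (12.4%), and the CHOP-ATF4 composite core TGATGNAA in 0 of 9 windows (3.97%). A match describes letters in these windows and is not evidence of binding.

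The genes whose levels followed Malat1, Neat1 and Gas5 most closely were ranked among 9586 genes by the Pearson coefficient of log2 CPM (counts per library scaled to a common total) over the 6 libraries, which includes the difference between the groups and carries no test. For Malat1 these were Macf1 (0.996), Zfp691 (0.994) and Flt3l (0.993). For Neat1 they were Ndor1 (0.998), Ino80 (0.998) and Tmem80 (0.996), and for Gas5 Qpct (0.998), Tubgcp4 (0.997) and Slc22a21 (0.996). The genes like Malat1 did not pass the test, with log2 fold changes of 0.34, 0.54 and 0.66 and adjusted p-values of 0.133, 0.101 and 0.102 (edgeR). Of those like Neat1, Ndor1 passed (0.82, adjusted p = 0.02, edgeR), while Ino80 (0.28, 0.117) and Tmem80 (0.30, 0.24) did not. Of those like Gas5, Qpct (2.06, adjusted p = 4.84e-05, edgeR) and Slc22a21 (1.87, adjusted p = 0.000266) were past a log2 fold change of 1, and Tubgcp4 was at 0.52 (adjusted p = 0.00646).

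Measures of the libraries were set beside these results. Total counts were 12495957 to 20050677 per library. The mitochondrially encoded mRNAs took 1.07% to 1.24% of the counts in DMSO and 1.37% to 1.70% in SKI-II. Of 10 tested, 3 were called higher and 0 lower, beside 18.4% and 19.7% of all tested genes, with a median of 0.64. The 3 were mt-Nd4 at 0.76 (adjusted p = 0.00222, edgeR), mt-Nd6 at 0.64 (0.00197) and mt-Nd5 at 0.60 (0.00902), and 7 were called when DMSO replicate 1 was left out and 6 when SKI-II replicate 3 was. Over the 10 tested, the mean normalized count in DMSO ran from 6.09 to 137580. The median thus includes rows near the floor, and these rows add little to the share. Long noncoding genes other than the 10 took 0.565% to 0.598% in DMSO and 0.658% to 0.881% in SKI-II. Gm26917 carried this difference, since without it the shares overlapped, at 0.469% to 0.528% in DMSO and 0.458% to 0.532% in SKI-II. The part of these measures in the changes of the 10 RNAs was not tested. Of 12 macrophage markers, all tested and set beside the same shares, 3 were higher, led by Fcgr1 (2.17, adjusted p = 1.6e-05, edgeR) and Cd14 (1.41, 0.000273), and 3 lower, led by Lyz2 (-1.26, 0.0172) and Itgam (-0.93, 0.00781). Markers of other cell types summed to 1.39 to 1.60 CPM in DMSO and 1.73 to 2.39 in SKI-II over 18 genes, of which 8, with Epcam and Ms4a1 among them, were at 0 in all libraries.

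The annotation limits a few of these values. Snhg3 shares 71.5% of its exon bases with Gm17300 on the opposite strand and 13.7% with Rcc1 on the same strand, and Snhg6 shares 11.1% with Mcmdc2 on the opposite strand, which had at most 1 count in a library. The strand setting of the counting is not stated in these sources, so reads of Snhg3 and Gm17300 cannot be told apart.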

How the data were processed

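RNA-seq libraries of RAW264.7 cells were analysed from the raw count of reads per gene, which the authors deposited without normalization. The submitters' processing notes name Trimmomatic 0.36, STAR 2.5.2b, featureCounts of Subread 1.5.2 and DESeq2. The genome build, annotation release and strand setting were not given in the sources used here. GENCODE M21 (GRCm38) named 49056 of 49315 rows, and the rows left without a name held 0.0102% of the counts. All 6 columns were used. Groups came from the sample labels.

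Counts were tested with edgeR 4.0.16 in R 4.3.3 (TMM scaling, filterByExpr with its default minimum count, 10, and minimum total, 15, quasi-likelihood F test, Benjamini-Hochberg adjustment, threshold 0.05) after a check on simulated counts. Standard errors were the log2 fold change over the square root of F. Intervals used the moderated degrees of freedom. Normalized counts were scaled to 16042438. Libraries of a group differed by more than sampling noise, the chi-square divided by its degrees of freedom being 15.4 to 58.1. Alternatives were DESeq2 1.42.0, limma-voom (limma 3.58.1), other scalings and filters, a replicate block, each library left out, and glmTreat. Sequences were read from RefSeq and GENCODE tables.

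The members and the gene lists, written by hand, were chosen with earlier results of these data known. Named were all members, in each list the 2 called genes with the largest increase and the 2 with the largest decrease among those averaging at least 10 normalized counts (all where 3 or fewer were called), tested noncoding hosts and neighbours, and the 3 genes most like Malat1, Neat1 and Gas5 with a mean of at least 100. Tug1, Pvt1 and the uncalled markers at 0 were named outside this rule, after their values were seen. Results of some genes that this rule selects are left out. Figures were drawn with matplotlib 3.10.9.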

Additional observations from a re-analysis of the deposited data

How the results depend on the processing

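Of the 15 alternatives run for each RNA, Gas5 and Snhg12 kept their calls in all 15, Neat1 in 14 and Malat1 in 10, and none of the 10 RNAs reversed a call. The count of RNAs called was 4 in the main analysis and 3 with DESeq2 or library size alone. It was 2, Gas5 and Neat1, with glmTreat against a log2 fold change of 0.5, where the adjusted p of Snhg12 was 0.0626 and that of Malat1 0.148. With 1 library left out it ranged from 2 to 4, and with the log2 threshold of 1 also from 2 to 4. Leaving replicate 3 out of both groups, chosen after the data were seen, gave 2 with that threshold, since Malat1 (0.98) and Snhg12 (0.91) fell below it. Snhg1 and Snhg15, which did not pass the test, changed sign when 1 library was left out, with ranges of -0.10 to 0.41 and -0.15 to 0.41. The log2 ratio of Malat1 to Neat1 differed by -0.80 to -1.47 and the share of library counts by 0.177 to 0.276 percentage points with 1 library left out.

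The fit with a replicate block gave 4 calls and a ratio difference of -1.09. In that fit the adjusted p was 0.00147 for Malat1 and 9.1e-05 for Neat1 (edgeR), smaller than in the main analysis. Libraries with the same number correlated in their deviations from the group means at 0.246, 0.01 and 0.458. Pairs with different numbers gave -0.462 to 0.296. The labels do not say that a number marks a shared culture, so the numbers were not taken to pair the libraries. With no filter on low counts, the same 4 were called at much smaller adjusted p-values, down to 5.72e-34 for Neat1; the cause was not tested. Depth was lowest for Snhg3, at 26.07 to 60.4 normalized counts, whose interval was also the widest of the 6 RNAs that did not pass.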
